A study of Mus musculus with 16 samples.

Results

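Transcripts of 8 genes of the postsynaptic scaffold of excitatory synapses were examined in the dentate gyrus of aged p16 WT and p16 KO mice, at rest and after running: Homer1, Homer2, Homer3, Shank1, Shank2, Shank3, Dlg4 and Dbn1. The genes were taken by name from the deposited gene tables, and all 8 were found among 24421 gene names and passed the filter on low values, set at 0.1 TPM on average. The animals were male C57BL/6 mice aged 1 year, either p16Ink4a +/+ (p16 WT) or p16Ink4a -/- (p16 KO), and either sedentary (CTL) or given a running wheel for 12 days (RUN). Each of the 4 groups held 4 libraries, numbered 1 to 4 for p16 WT CTL, 5 to 8 for p16 KO CTL, 9 to 12 for p16 WT RUN and 13 to 16 for p16 KO RUN, and each library was made from the pooled dentate gyri of 2 mice, so these data give no spread between individual mice. The p16 KO line carries a germline p16Ink4a null allele made on the FVB background and then backcrossed to C57BL/6, and keeps a functional p19Arf.

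Excitatory synapses on dendritic spines hold a dense protein lattice below the receptors. PSD-95, the product of Dlg4, anchors NMDA receptors and, through other proteins, AMPA receptors. Shank proteins form the deeper layer of the lattice and join it to Homer proteins, which bind group I metabotropic glutamate receptors and inositol trisphosphate receptors. Drebrin, the product of Dbn1, binds actin filaments in the spine. Homer1 also gives a short, activity-induced transcript whose protein lacks the coiled coil by which the long Homer forms join each other, and the tables, which hold 1 value per gene, do not separate it from the long forms.

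The values are TPM (transcripts scaled to one common total per library), which are corrected for transcript length and can be compared between genes. The tables hold no read counts, so the counting error of a value is not known from them. As a measure of relative depth, the deposited coverage of genes lay between 0.62 and 1.95 times the mean library. Libraries 2, 6 and 7, all sedentary, stood apart by low levels of nuclear RNA: Malat1 stood at 67.1 to 202 TPM there and at 359 to 856 TPM in the other 13 libraries, and the 9 nuclear long noncoding RNAs on a fixed list summed to 637 to 1151 TPM against 2007 to 2710 TPM. Libraries 2 and 7 also had the highest relative coverage, at 1.95 and 1.68, while library 6 was at 1.02. Endothelium markers summed to 55.8 to 77.6 TPM in libraries 2, 6 and 7 and to 91.6 to 137.7 TPM in the other 13. Microglia markers summed to 326 to 403 TPM against 258 to 317 TPM. Leaving these libraries out thus changes more than nuclear RNA. Values without libraries 2, 6 and 7, an alternative chosen after the data were seen, stand beside the results they move most. The knocked-out gene could not serve as a check of the labels, since Cdkn2a, which also encodes p19Arf, was at 0 to 0.59 TPM in all groups. All 6 genes on a list of granule neuron markers were detected, with sums of 433 to 1212 TPM per library.

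By TPM, Dlg4 was the most abundant of the 8 transcripts, and Homer2 the least. The mean TPM over the 16 libraries was 738 ± 32.0 for Dlg4 (SD, n = 16), which ranked 167th of the 24421 gene names. Dbn1 followed with 389 ± 57.5 TPM, Shank1 with 243 ± 39.1 TPM and Shank3 with 157 ± 12.3 TPM. Shank2 at 99.97 ± 8.94 TPM and Homer3 at 98.6 ± 16.8 TPM could not be ordered, since Shank2 was above Homer3 in 8 of 16 libraries. Homer1 had 62.2 ± 10.8 TPM and Homer2 had 13.8 ± 5.39 TPM. Every other pair of neighbours in this order stood in the same order in all 16 libraries. The place of Homer1 is uncertain, since its deposited coverage was 0.088 to 0.108 of what its deposited FPKM implies in the same library. The tables do not settle which of the measures holds, and a level lower by that factor would put the mean of Homer1 below that of Homer2. The genes also differed in how far the libraries spread: the highest library was 1.18 times the lowest for Dlg4, 1.31 times for Shank3, 1.45 times for Shank2, 1.65 to 1.72 times for Dbn1, Homer3, Homer1 and Shank1, and 4.66 times for Homer2.

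**Figure D1:**
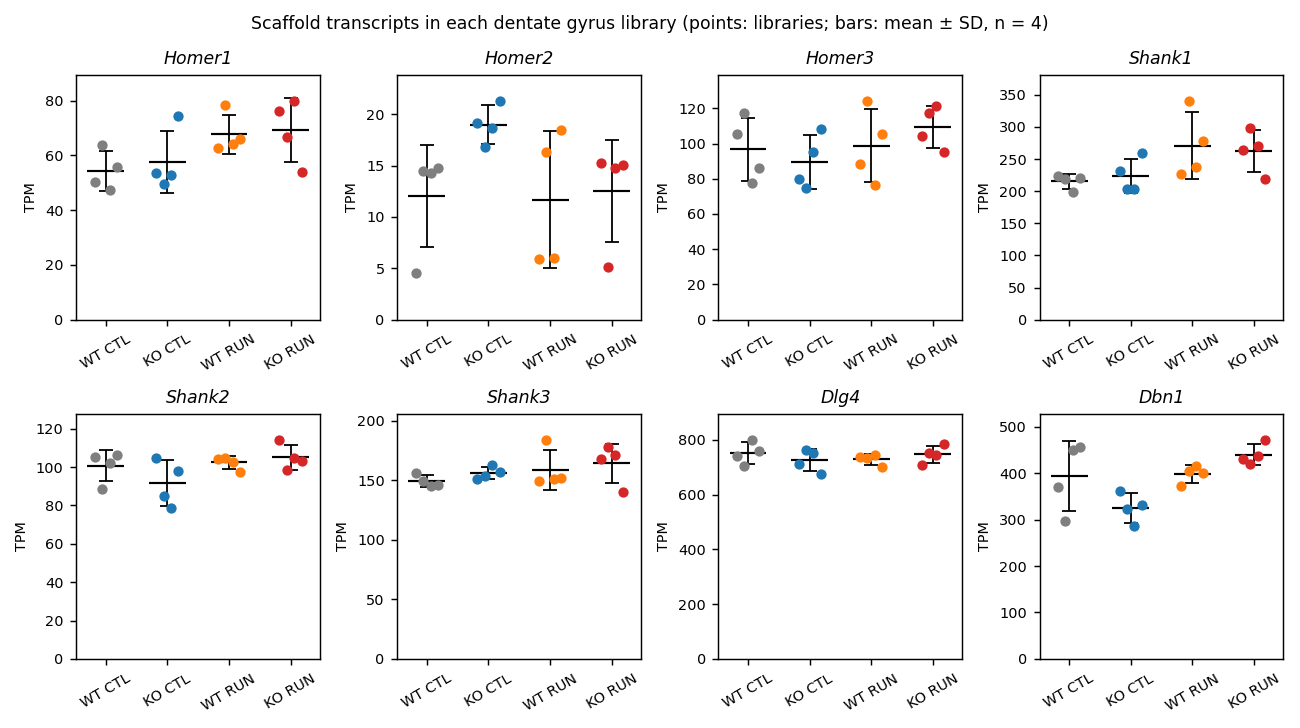
TPM of each of the 8 genes (vertical axes, from 0) in the 4 libraries of each group (points), with the group mean and SD (bars). Dbn1 in p16 KO RUN (420.6 to 471.2 TPM) lies above p16 KO CTL (285.2 to 361.8 TPM), and Homer2 stands at 4.57 to 5.99 TPM in 4 libraries and at 14.2 to 21.3 TPM in the other 12.

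The positions of the genes in the mm10 build, as the tables give them, were chr13:93304495-93405129 on the plus strand for Homer1, chr7:81600481-81706925 on the minus strand for Homer2 and chr8:70282999-70294361 on the plus strand for Homer3. Shank1 lay at chr7:44310264-44358353, Shank2 at chr7:144175520-144422675, Shank3 at chr15:89499857-89560260 and Dlg4 at chr11:70018605-70045531, all on the plus strand. Dbn1 lay at chr13:55473428-55488076 on the minus strand. The values cover whole genes, and GENCODE lists several protein-coding transcripts for each, from 3 for Shank1 to 17 for Dlg4. The last 1496 bases of Homer3 overlap Ddx49, an RNA helicase gene on the opposite strand with a mean of 32.4 TPM. Whether the authors' counting used the strand is not stated, so reads in that overlap cannot be assigned with certainty. Shank2 lies within the span of Mir3470b, an entry of the opposite strand with a mean of 0.37 TPM, and Dbn1 holds Mir6944 on its own strand, with 1.09 TPM.

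In Set A, which sets running against sedentary p16 KO libraries and asks what running changes in the knockout, Dbn1 was higher and Homer2 lower after running. These 2 of the 8 genes passed the unadjusted p of 0.05 that the study used as its threshold, where 18.5% of all 17317 tested genes passed it, so the members' count is near the background. Neither passed 0.05 after Benjamini-Hochberg adjustment in limma, as 0.0173% of all genes did. The median log2 fold change of the 8 genes was 0.15, against 0.02 over all tested genes.

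Dbn1 measured 361.8, 322.1, 285.2 and 331.0 TPM in the 4 p16 KO CTL libraries and 431.0, 420.6, 437.5 and 471.2 TPM in the 4 p16 KO RUN libraries. All 4 running libraries lay above all 4 sedentary ones, and for 10.4% of all genes the scaled values of the groups did not overlap in one direction or the other. The log2 fold change was 0.38 ± 0.06 (SE), a difference of 29.7%, with an adjusted p of 0.0807 in limma and rank 30 by p among all genes. The exact permutation test gave 0.0286, the smallest p that 4 against 4 libraries allow. With each library left out in turn the log2 fold change stayed between 0.34 and 0.40, and it was 0.33 without libraries 6 and 7, where 8.49% of all genes passed the threshold. Dbn1 has been named in the study's own gene lists from these libraries, so its choice and its direction here are not independent of them.

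Other RNAs moved with Dbn1 in these libraries. Of the 9 nuclear long noncoding RNAs, 2 were higher and 1 lower past the threshold in Set A, against 10.7% and 7.74% of all genes, with summed levels of 637 to 2262 TPM in p16 KO CTL and 2096 to 2482 TPM in p16 KO RUN. With the mean log2 level of that list as a covariate, the log2 fold change of Dbn1 was 0.32 ± 0.06. Of 6 oligodendrocyte markers, 4 were lower past the threshold, against 7.74% of all genes, with summed levels of 1458 to 2426 TPM in p16 KO CTL and 1132 to 1484 TPM in p16 KO RUN. None of the 9 or of the 6 had a mean below 0.1 TPM. Over the 16 libraries Dbn1 had r = -0.73 and rho = -0.78 with the oligodendrocyte markers (permutation p 0.00133 and 0.0005, adjusted over 160 relations of the 8 genes with lists to 0.0175 and 0.0244), -0.70 without the 2 farthest libraries, -0.63 within groups and -0.65 without libraries 2, 6 and 7. With the nuclear list Dbn1 had r = 0.72 and rho = 0.64 (permutation p 0.00125 and 0.0102, adjusted 0.0175 and 0.0813), 0.68 without the 2 farthest libraries, 0.60 within groups and 0.39 without libraries 2, 6 and 7. Other glial lists were lower in Set A too. Of 6 astrocyte markers 3 were lower and 0 higher past the threshold, and of 6 microglia markers 2 were lower and 0 higher. Over the 16 libraries Dbn1 had r = -0.58 with the astrocyte and -0.59 with the microglia list (adjusted permutation p 0.102 and 0.074). Without libraries 2, 6 and 7 these were 0.01 and 0.03. No fit of the Dbn1 difference held the oligodendrocyte, astrocyte or microglia markers as a term. In bulk tissue of this kind, fewer cells of a type and less RNA per cell cannot be told apart.

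Homer2 measured 19.2, 16.8, 18.7 and 21.3 TPM in p16 KO CTL and 15.3, 5.09, 14.7 and 15.0 TPM in p16 KO RUN. The groups did not overlap, but library 14 lay far below the other 3 running libraries. The log2 fold change was -0.78 ± 0.32 with an adjusted p of 0.25 in limma, and the exact permutation test gave 0.0286. Without library 14 it was -0.41 and still passed the threshold. The threshold was not passed with TPM as deposited (unadjusted p 0.0549 in limma), without a filter (0.0626), without a variance trend (0.0552), with the nuclear list as a covariate (0.0569) or in 1 fit of all 16 libraries (0.105). Without library 5, 7 or 8 in turn the threshold was not passed, with log2 fold changes of -0.80, -0.77 and -0.73, nor was it without libraries 6 and 7 together, at -0.83.

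The other 6 genes did not pass the threshold in Set A. Homer3 had a log2 fold change of 0.23 (95% interval -0.07 to 0.53), Homer1 of 0.20 (-0.14 to 0.55), Shank1 of 0.16 (-0.08 to 0.40) and Shank2 of 0.14 (-0.03 to 0.31). Shank3 was at 0.00 (-0.20 to 0.20). Dlg4 was at -0.02 (-0.19 to 0.15), although its mean TPM as deposited was higher in p16 KO RUN (747 TPM) than in p16 KO CTL (726 TPM), and its sign depends on how libraries are scaled. Under quantile normalization Dlg4 was at 0.14 and passed the threshold (unadjusted p 0.022 in limma). Homer3 passed with TPM as deposited, at 0.30 (0.0387), and Shank2 in 1 fit of all 16 libraries, at 0.14 (0.0446). Without libraries 6 and 7 the values were 0.10 for Homer1, 0.07 for Shank1, 0.03 for Shank2, 0.07 for Shank3 and 0.21 for Homer3, and with the nuclear list as a covariate 0.09, 0.08, 0.03, 0.07 and 0.22. None of these 5 passed in either fit. With 1 library left out, Homer1 passed without library 8 (0.33, unadjusted p 0.0368 in limma) and without library 16 (0.33, 0.0436). Homer3 passed without library 8 (0.32, 0.0331), Shank1 without library 16 (0.25, 0.0236) and Shank2 without library 5 (0.18, 0.0353).

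In Set B, which sets sedentary p16 KO against sedentary p16 WT libraries and asks what the loss of p16 changes at rest, 1 of the 8 genes, Homer2, passed the threshold, against 6.69% of all genes and 3.15% in its direction. Homer2 measured 4.57, 14.5, 14.2 and 14.7 TPM in the 4 p16 WT CTL libraries, so that library 1 lay far below the other 3. All 4 p16 KO CTL libraries, given above, were higher than all 4 of p16 WT CTL, where 2.7% of all genes showed no overlap. The log2 fold change was 0.85 ± 0.35, with an adjusted p of 0.625 in limma and 0.0286 in the exact permutation test. Without library 1 the log2 fold change was 0.45 and passed the threshold. It did not pass without library 5, 6, 7 or 8 in turn, at 0.80 to 0.90, and it did not pass without libraries 2, 6 and 7 together, at 1.06. It also did not pass without a filter (unadjusted p 0.0616 in limma), without a variance trend (0.0539), with the nuclear list as a covariate (0.0694) or in 1 fit of all 16 libraries (0.0794). Homer2 too is named in the study's own lists for this comparison.

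Dbn1 had a log2 fold change of -0.20 in Set B (95% interval -0.46 to 0.06), and Shank3 of 0.13 (-0.03 to 0.28). Dbn1 in p16 WT CTL measured 369.8, 297.8, 450.2 and 456.3 TPM, and the lowest of these was library 2, one of the libraries with low nuclear RNA. Without library 2 alone the Dbn1 log2 fold change was -0.30 ± 0.09 and passed (unadjusted p 0.00808 in limma), as Shank3 did without library 5, at 0.17 (0.0388). Without libraries 2, 6 and 7 the Dbn1 log2 fold change was -0.25 ± 0.10 and passed the unadjusted threshold, with an adjusted p of 0.663 in limma. With the nuclear list as a covariate it was -0.10 ± 0.10 and did not pass, and in 1 fit of all 16 libraries it was -0.20 ± 0.09 and passed (unadjusted p 0.0451 in limma). The oligodendrocyte markers, without libraries 2, 6 and 7, lay between 0.45 (Mog) and 0.71 (Mbp) in Set B and did not pass. Homer1, Shank1, Shank2, Homer3 and Dlg4 lay between -0.08 and 0.13 on the log2 scale. With libraries 2, 6 and 7 left out Homer1 was at 0.34 ± 0.17 in place of 0.13 ± 0.15, Shank1 at 0.23 ± 0.10 in place of 0.11 ± 0.08, Homer3 at 0.10 ± 0.20, Dlg4 at -0.10 ± 0.06, Shank3 at 0.09 ± 0.07 and Shank2 at -0.01 ± 0.06, and none of these 6 passed.

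In Set C, which sets running against sedentary p16 WT libraries, Homer1 and Shank1 were higher after running. These 2 of the 8 genes passed the threshold, against 4.81% of all genes and 2.69% in this direction. After scaling none of the 8 genes had groups that did not overlap, against 3.34% of all genes, and neither of the 2 passed after adjustment. Homer1 measured 50.4, 63.8, 47.3 and 55.9 TPM in p16 WT CTL and 62.5, 78.2, 64.0 and 66.0 TPM in p16 WT RUN. The groups overlapped through library 2 of the sedentary group, at 63.8 TPM, which lay above library 9. The log2 fold change was 0.31 ± 0.12, with an adjusted p of 0.985 in limma and 0.114 in the exact permutation test. Shank1, which encodes the most abundant Shank transcript here, measured 223.8, 219.0, 198.3 and 220.4 TPM in p16 WT CTL and 226.4, 340.7, 237.1 and 278.8 TPM in p16 WT RUN. All 4 running libraries lay above all 4 sedentary ones in TPM, with library 10 the highest, while after scaling the groups overlapped. The log2 fold change was 0.30 ± 0.13, and 0.17 without library 10. The adjusted p for Shank1 was 0.985 in limma and the exact permutation p 0.114. Homer1 and Shank1 each failed the threshold without library 1, 3, 4, 10 or 12 in turn, and Shank1 also without library 2. Neither passed without a filter (unadjusted p 0.0521 and 0.0757 in limma) or without a variance trend (0.0547 and 0.0771), Homer1 did not in 1 fit of all 16 libraries (0.0553), and Shank1 did not with the nuclear list as a covariate (0.0676).

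Without library 2 Homer1 was at 0.41 ± 0.10 in Set C and passed, and Shank1 was at 0.33 ± 0.15. The remaining genes of Set C did not pass. Shank3 was at 0.07 (95% interval -0.12 to 0.26), Dbn1 at 0.02 (-0.22 to 0.27), Shank2 at 0.02 (-0.11 to 0.14), Homer3 at 0.01 (-0.41 to 0.44) and Dlg4 at -0.05 (-0.17 to 0.06). Homer2 was at -0.11 with an interval from -1.23 to 1.02, the widest of the 8, since libraries 9 and 11 stood at 5.91 and 5.99 TPM and libraries 10 and 12 at 16.4 and 18.4 TPM.

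In Set E, which sets running p16 KO against running p16 WT libraries, 1 of the 8 genes, Dbn1, passed the threshold, against 3.87% of all genes and 2.11% in its direction. Dbn1 measured 372.3, 405.3, 416.1 and 399.3 TPM in p16 WT RUN, all below the lowest p16 KO RUN library at 420.6 TPM. The log2 fold change was 0.15 ± 0.05, with an adjusted p of 1 in limma and 0.0286 in the exact permutation test. In 1 fit of all 16 libraries Dbn1 did not pass in Set E (unadjusted p 0.116 in limma). An adjusted p under 0.05 was found for 0.00577% of all genes. No overlap was seen in 2.46% of all genes in this comparison. The running libraries of both genotypes had like levels of the nuclear list, with sums of 2007 to 2581 TPM in p16 WT RUN and 2096 to 2482 TPM in p16 KO RUN. The oligodendrocyte markers, with which Dbn1 varied inversely, summed to 1226 to 1757 TPM in p16 WT RUN and 1132 to 1484 TPM in p16 KO RUN, with a median log2 fold change of -0.16 and 0 of 6 past the threshold in Set E. In Set D, which sets running p16 KO against sedentary p16 WT libraries, Homer1 and Shank1 were higher past the threshold, against 8.63% of all genes and 4.97% in this direction, and none of the 8 had groups that did not overlap, against 5.68% of all genes. The log2 fold changes were 0.34 ± 0.15 for Homer1 and 0.27 ± 0.10 for Shank1, with adjusted p of 0.571 and 0.486 in limma. Without library 2 they were 0.44 ± 0.14 and 0.31 ± 0.11. Homer1 passed in 2 and Shank1 in 5 of 8 fits with a library left out, and Homer1 did not pass without a filter or without a variance trend. Homer3 was at 0.19 and did not pass. It was at 0.31 and passed without library 2 (unadjusted p 0.0461 in limma), where 11.2% of all genes passed the threshold. With the nuclear list as a covariate it was at 0.29 and passed (unadjusted p 0.0227 in limma). In each of these fits 3 of 8 genes passed. Shank3 passed without library 16, at 0.21 (0.00987). Sets A, B, C, D and E share groups of libraries with each other and are not independent.

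**Figure D2:**
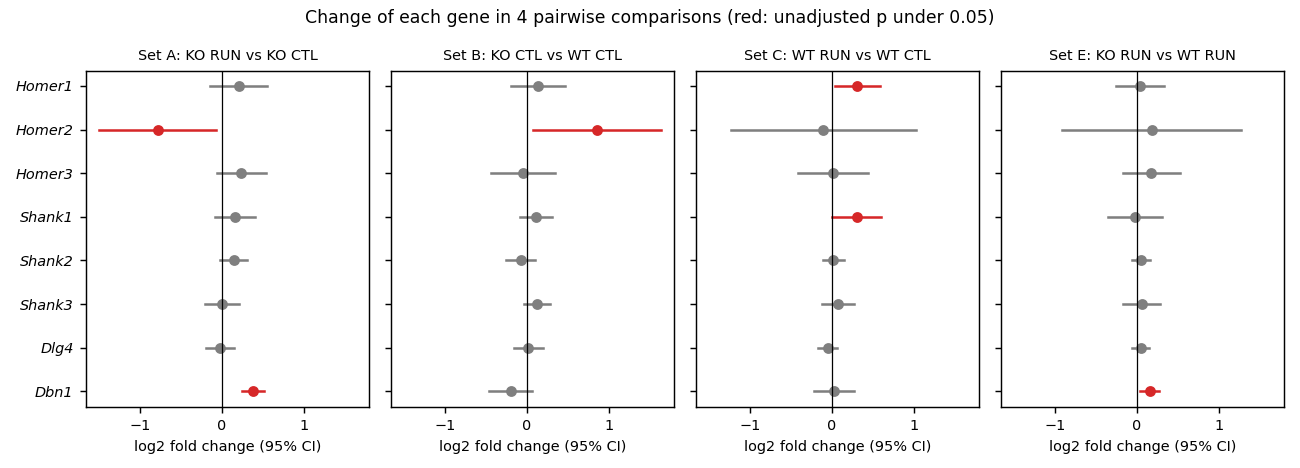
Log2 fold change of each gene (horizontal axis, points) with its 95% interval from limma (lines) in Sets A, B, C and E. Genes with an unadjusted p under 0.05 are red: Dbn1 and Homer2 in Set A, Homer2 in Set B, Homer1 and Shank1 in Set C and Dbn1 in Set E.

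The effect of running was compared between the genotypes by the interaction over all 16 libraries. Dbn1 was the 1 of 8 genes that passed the threshold, against 5.48% of all genes and 2.95% in its direction. Its running effect was 0.35 ± 0.13 higher on the log2 scale in p16 KO than in p16 WT, with an adjusted p of 0.797 in limma. The interaction of Dbn1 passed the unadjusted threshold with each of the 16 libraries left out in turn, between 0.29 and 0.45, and was 0.40 ± 0.10 without libraries 2, 6 and 7. With the nuclear list as a covariate it was smaller, at 0.25 ± 0.11, and still passed the unadjusted threshold. The oligodendrocyte markers moved the other way, with a median interaction of -0.56 and 1 of 6 lower past the threshold over all 16 libraries. When libraries 2, 6 and 7 were left out their median was -0.82, and 6 of 6 were lower past the threshold, from -0.53 to -0.88, against 3.49% of all genes. Homer2 had an interaction of -0.68 with a 95% interval from -2.04 to 0.69. For Homer1 the interaction was -0.10 (-0.55 to 0.34) and for Shank1 it was -0.14 (-0.52 to 0.25), so a difference between genotypes in their running effects was not detectable at this spread. These were -0.31 ± 0.23 and -0.26 ± 0.22 without libraries 2, 6 and 7, and neither passed.

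Over both genotypes together, 3 of the 8 genes were higher in running than in sedentary libraries past the threshold, against 17.9% of all genes in either direction and 9.87% in this direction. Homer1 had a mean running effect of 0.26 ± 0.10 with an adjusted p of 0.224 in limma, Shank1 of 0.23 ± 0.09 with 0.208 and Dbn1 of 0.20 ± 0.06 with 0.143. With the nuclear list as a covariate the 3 effects were 0.24, 0.19 and 0.13, and none passed. Without libraries 2, 6 and 7 they were 0.26, 0.20 and 0.12, and Shank1 did not pass. Homer2 passed without library 1, at -0.65, and Shank2 without library 5, at 0.10. Shank1 also did not pass without library 14, and Homer1 did not in 7 of 16 fits with a library left out. None of the 3 passed after adjustment, as 0.751% of all genes did. Over both treatments together, 0 of the 8 genes differed between genotypes past an unadjusted p of 0.05 in limma, against 7.12% of all genes. With 1 library left out Homer2 passed here without library 14 (0.70) and Shank3 without library 10 or 16 (0.13 each).

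Within the families, Homer3 gave the largest share of the Homer transcripts and Shank1 that of the Shank transcripts. Of the summed TPM of the 3 Homer genes, Homer3 held 56.4% ± 3.70 (SD, n = 16), Homer1 35.6% ± 3.18 and Homer2 7.97% ± 3.20. Of the summed TPM of the 3 Shank genes, Shank1 held 48.4% ± 2.71, Shank3 31.5% ± 1.98 and Shank2 20.1% ± 1.99. A share does not depend on how a library is scaled, but the Homer shares depend on the TPM of Homer1, whose coverage stands at about 0.1 of what its FPKM implies. The Homer2 share was 11.5% ± 0.91 (n = 4) in p16 KO CTL, above the 7.47% ± 3.30 in p16 WT CTL and the 6.62% ± 2.79 in p16 KO RUN, with an exact permutation p of 0.0286 for each. After adjustment over the 24 comparisons of shares these p-values were 0.229, the smallest of the family. The Homer1 share was 38.5% ± 4.10 in p16 WT RUN and 33.4% ± 1.84 in p16 WT CTL, and the Shank1 share 50.6% ± 3.37 and 46.3% ± 1.41, each with an exact permutation p of 0.0571 for 4 against 4 libraries. The Shank2 share in Set B and the Shank3 share in Set C had the same p of 0.0571 in the exact permutation test.

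**Figure D3:**
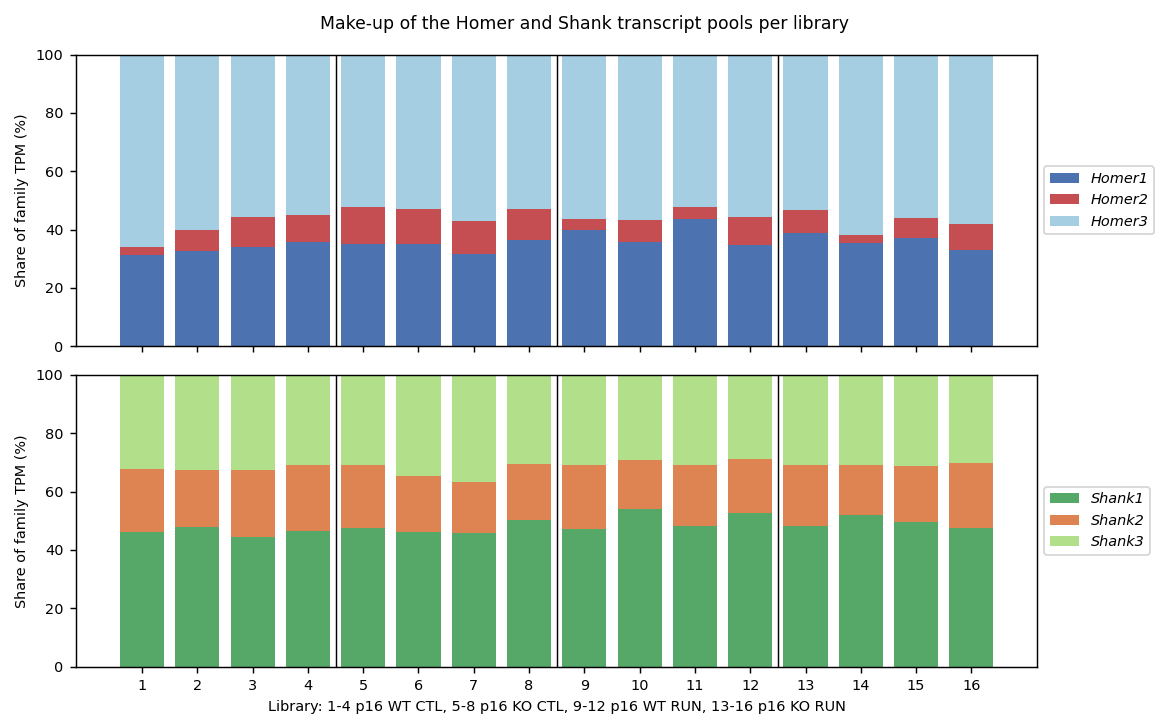
Share in percent (vertical axis) of Homer1, Homer2 and Homer3 in their summed TPM (upper panel) and of Shank1, Shank2 and Shank3 in theirs (lower panel) for each of the 16 libraries (bars). The Homer2 band narrows to between 2.69% and 4.08% in libraries 1, 9, 11 and 14, while the Shank bands shift by less.

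Homer2 was the one gene of the 8 whose libraries fell into 2 separate levels. It stood at 4.57 to 5.99 TPM in library 1 (p16 WT CTL), libraries 9 and 11 (p16 WT RUN) and library 14 (p16 KO RUN), and at 14.2 to 21.3 TPM in the other 12, with nothing between. The gap was 2.35-fold on the TPM + 0.1 scale. Of 14438 genes that averaged 1 TPM or more, 1.41% had a gap of at least 2-fold with at least 2 libraries on each side, and the other 7 scaffold genes had gaps of 1.03- to 1.12-fold. The same 4 libraries were the lowest for 10 genes, Homer2 included. They did not stand apart in depth, with a relative coverage of 0.72 to 1.07 among 0.62 to 1.95 in the others. Their nuclear long noncoding RNA summed to 2007 to 2203 TPM, the lowest of the 13 libraries outside 2, 6 and 7, where the other 9 had 2208 to 2710 TPM. Homer2 had r = 0.80 with the nuclear list over those 13 libraries and -0.20 over all 16, which is given as a description, since the 2 levels of Homer2 form separate clusters. The lower level was seen in 3 of the 4 groups, and p16 KO CTL had no library at it, which bears on each Homer2 value in Sets A and B given above. Each library holds 2 mice, so the level of a single mouse is not known. Single transcripts and alleles of Homer2 were not analysed here, so the values in Sets A and B do not show whether the 2 levels differ in transcript or allele.

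The 8 genes did not vary as one block across the libraries. Homer1, Homer3, Shank1 and Shank3 varied together, with Pearson correlations of their log2 levels between 0.61 and 0.82 for all 6 pairs (n = 16), while Shank2 varied with Dbn1 and against Dlg4. The highest was between Homer1 and Shank1, with r = 0.82 and rho = 0.83 and permutation p of 0.0001 and 0.00018, adjusted over the 28 pairs to 0.0028 and 0.00504. It stayed at 0.80 without the 2 libraries farthest from the median of Homer1, and at 0.74 for deviations from the group means. For Homer3 and Shank1 r was 0.72 and rho 0.66 (permutation p 0.00138 and 0.00629, adjusted 0.0165 and 0.0362), with 0.70 without the 2 farthest libraries and 0.80 within groups. For Shank1 and Shank3 r was 0.71 and rho 0.67 (permutation p 0.00177 and 0.00646, adjusted 0.0165 and 0.0362), and r was 0.47 without the 2 farthest libraries, 0.78 within groups and 0.90 without libraries 2, 6 and 7. For Shank2 and Dlg4 r was -0.66 but rho -0.37, and r was -0.24 without libraries 2, 6 and 7. For Shank2 and Dbn1 r was 0.63 with rho 0.43, and 0.04 without those 3 libraries. Both relations of Shank2 thus rest on the libraries with low nuclear RNA. For Dlg4 and Dbn1 r was -0.11 over all 16 libraries and 0.65 without libraries 2, 6 and 7. TPM within a library share one total, and libraries share dissection and depth, which all such relations include.

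**Figure D4:**
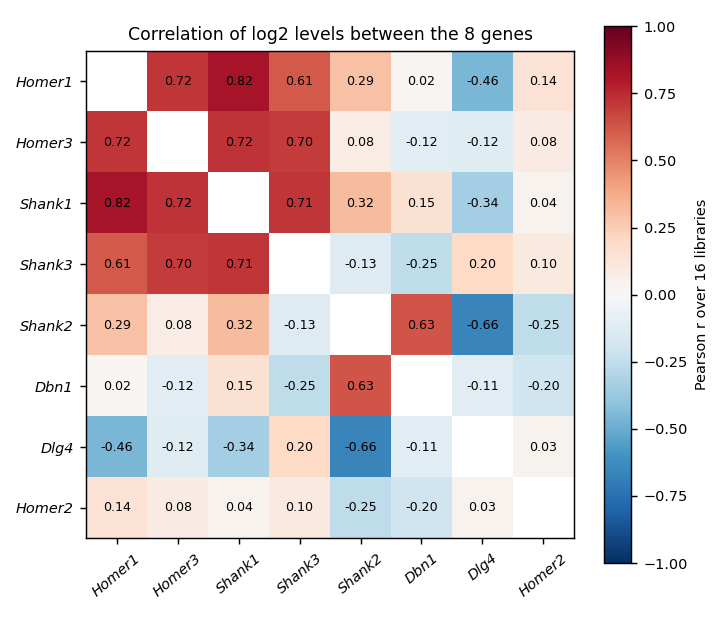
Pearson correlation of log2 levels over the 16 libraries (colour and printed value) for each pair of the 8 genes (rows and columns). Homer1, Homer3, Shank1 and Shank3 form a block with values from 0.61 to 0.82, and Homer2 has values between -0.25 and 0.14 with every other gene.

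Homer3 was higher in libraries with less granule neuron marker RNA and more RNA of several other cell type lists, CA3 pyramidal neurons and interneurons among them. Granule neurons are the principal cells of the dentate gyrus, and CA3 pyramidal neurons lie next to its hilus and can be taken along in dissection. Over the 16 libraries the log2 level of Homer3 had r = 0.75 and rho = 0.78 with the mean log2 level of the 3 CA3 markers (permutation p 0.00116 and 0.00059, adjusted over 160 relations to 0.0175 and 0.0244), and r was 0.87 without the 2 farthest libraries and 0.82 within groups. With the 6 granule markers Homer3 had r = -0.73 and rho = -0.82 (permutation p 0.00074 and 0.00011, adjusted 0.0169 and 0.0176), and r was -0.80 without the 2 farthest libraries and -0.89 within groups. With 8 interneuron markers Homer3 had r = 0.74 and rho = 0.68 (permutation p 0.0011 and 0.00478, adjusted 0.0175 and 0.0588), 0.66 without the 2 farthest libraries and 0.90 within groups. With 4 CA2 markers it had r = 0.64 and rho = 0.65 (permutation p 0.00642 and 0.00698, adjusted 0.0428 and 0.0698), 0.47 without the 2 farthest libraries and 0.74 within groups. With 6 oligodendrocyte markers it had r = 0.61 and rho = 0.64 (permutation p 0.0129 and 0.00931, adjusted 0.0712 and 0.0813), 0.60 without the 2 farthest libraries and 0.94 within groups. No one of these lists was thus set apart as the partner of Homer3. For Homer1 the highest was the interneuron list, with r = 0.76 and rho = 0.67 (permutation p 0.00072 and 0.00531, adjusted 0.0169 and 0.0607), 0.66 without the 2 farthest libraries, 0.81 within groups and 0.91 without libraries 2, 6 and 7. With the CA2 markers Homer1 had r = 0.68 and rho = 0.66 (permutation p 0.00347 and 0.00642, adjusted 0.0342 and 0.0685), 0.50 without the 2 farthest libraries and 0.66 within groups. Homer1 had r = -0.65 and rho = -0.69 with the granule markers (permutation p 0.00504 and 0.00405, adjusted 0.0384 and 0.0588), -0.66 without the 2 farthest libraries and -0.89 within groups. The CA3 markers summed to 188 to 300 TPM in p16 WT CTL, 196 to 282 TPM in p16 KO CTL, 209 to 313 TPM in p16 WT RUN and 176 to 323 TPM in p16 KO RUN, all 3 were detected, and 0 of 3 passed an unadjusted p of 0.05 in Sets A, B, C or E. Among the other members, Shank3 had r = 0.71 and rho = 0.71 with the interneuron list (adjusted permutation p 0.0203 and 0.0533), 0.64 without the 2 farthest libraries and 0.69 within groups. With CA3 Shank3 had r = 0.69 and rho = 0.63 (adjusted permutation p 0.0342 and 0.0876), 0.54 without the 2 farthest libraries and 0.77 within groups, and with the granule list r = -0.56 and rho = -0.75 (0.106 and 0.0374), -0.85 and -0.59. Shank1 had r = 0.65 and rho = 0.60 with the interneuron list (adjusted permutation p 0.0428 and 0.119), 0.51 without the 2 farthest libraries and 0.65 within groups. Dbn1 had the opposite sign with the granule list, at r = 0.58 and rho = 0.55 (adjusted permutation p 0.0847 and 0.152). It had r = 0.36 there without the 2 farthest libraries and 0.60 within groups. The highest r of all 160 relations was that of Shank2 with the 12 genes for ligands of Homer, at 0.92 with rho = 0.78 (adjusted permutation p 0.0008 and 0.0244), 0.77 without the 2 farthest libraries, 0.93 within groups and 0.60 without libraries 2, 6 and 7. With the endothelium list Shank2 had r = 0.89 and rho = 0.72 (adjusted permutation p 0.0008 and 0.0533), 0.74 without the 2 farthest libraries, 0.85 within groups and 0.61 without libraries 2, 6 and 7, and Dlg4 had r = -0.72 and rho = -0.54 (0.0203 and 0.152), -0.31, -0.77 and -0.34. With the nuclear list r was 0.86 for Shank2 and -0.69 for Dlg4 over all libraries and 0.09 and -0.08 without libraries 2, 6 and 7, and with the microglia list -0.78 and 0.68 over all and 0.01 and 0.10 without them. The interneuron markers summed to 990 to 1567 TPM over all libraries and the CA2 markers to 117 to 153 TPM. The part of these markers in the Homer3 and Homer1 levels was not tested.

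**Figure D5:**
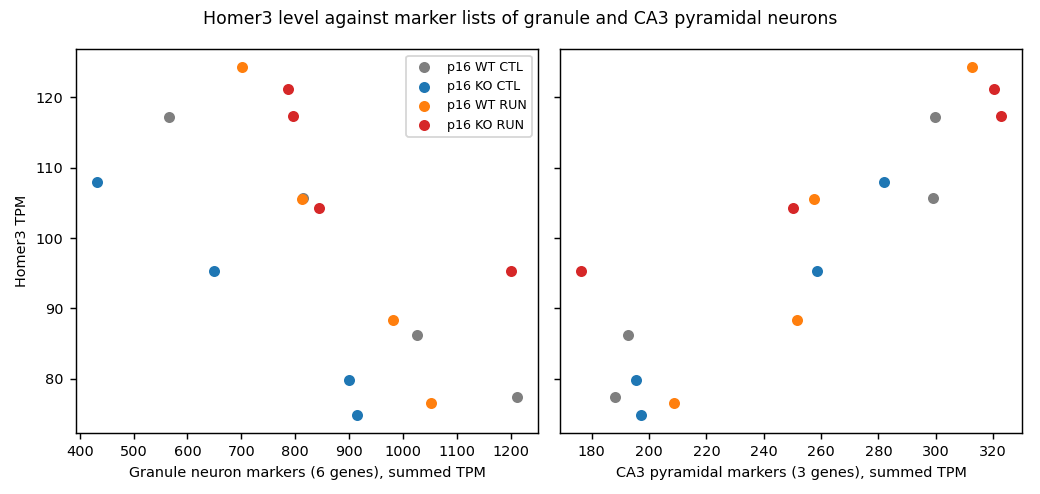
Homer3 TPM (vertical axis) against the summed TPM of 6 granule neuron markers (left) and of 3 CA3 pyramidal neuron markers (right), 1 point per library, coloured by group. Homer3, between 74.9 and 124 TPM, is mostly lower where the granule sum is higher and where the CA3 sum is lower, and the 4 groups intermingle.

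By the same measure, the genes most like each of the 8 among 14430 others were Midn, Dlx6os1 and Vgf for Homer1 (r = 0.92, 0.89 and 0.88), Pigq, Efna3 and Large for Shank1 (0.93, 0.92 and 0.91) and Pfkp, Prkar1b and Iqsec3 for Homer3 (0.95, 0.94 and 0.93), over 16 libraries each. Vgf, a neuropeptide precursor, and Midn, midnolin, are activity-responsive genes. With the list of 14 immediate early and activity genes Homer1 itself had r = 0.47 and rho = 0.56 (adjusted permutation p 0.219 and 0.152). These lay below its r = 0.76 and rho = 0.67 with the interneuron list. For Shank3 the genes most like it were Nsdhl, Ube3b and Ttl (0.92, 0.90 and 0.90), and for Shank2 Gm15800, Fryl and Pcnx (0.93, 0.92 and 0.91). For Dbn1 they were Plekhg5, Actn1 and Ncapd2, each at 0.94, of which Actn1 encodes the actin crosslinker alpha-actinin. For Dlg4 they were Fam136a, Eif2a and Mrpl22 (0.94, 0.92 and 0.88). Homer2 had the lowest values, with Hvcn1, Cntn4 and Ndn (0.86, 0.82 and 0.80). The genes named as most like a member were picked for their correlation, so their values are a description without a test.

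Promoter sequence of 6 of the 8 genes was found in a RefSeq table of the GRCm38.p6 build, with 10 start sites in all. Of these, 2 are shown, those of Homer1 and Shank3, since both belong to the genes that varied together and their windows hold a match to an activity-linked motif. The 250 bases before the upstream Homer1 start (chr13:93303507-93303756, plus strand) and before the Shank3 start (chr15:89499358-89499607, plus strand) are given 5′ to 3′, and capitals mark TGACG, the core of the cAMP response element, in Homer1 and the EGR motif GCGTGGGCG, which lies on the opposite strand, in Shank3.
Homer1: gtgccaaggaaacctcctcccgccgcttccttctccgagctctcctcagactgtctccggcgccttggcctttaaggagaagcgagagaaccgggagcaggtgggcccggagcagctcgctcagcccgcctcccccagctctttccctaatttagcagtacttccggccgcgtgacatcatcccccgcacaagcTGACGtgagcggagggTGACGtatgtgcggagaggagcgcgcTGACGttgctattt
Shank3: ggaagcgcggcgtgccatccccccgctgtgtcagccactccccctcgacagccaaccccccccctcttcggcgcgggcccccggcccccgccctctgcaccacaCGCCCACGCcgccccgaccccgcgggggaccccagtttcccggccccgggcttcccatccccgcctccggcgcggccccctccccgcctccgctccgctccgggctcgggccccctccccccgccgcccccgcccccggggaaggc
Both strands were searched for the cAMP response element TGACGTCA and its shorter core TGACG, for the AP-1 motif TGAGTCA, the EGR motif GCGTGGGCG and the E-box CACGTG, and for the GC box GGGCGG, the TATA box TATAAA, the CArG box and the MEF2 motif. Matches of TGACG also count within TGACGTCA. The Homer1 window holds TGACG 3 times, from -56, -40 and -14 relative to the start. Of 32851 mouse promoter windows of this length 17.8% hold TGACG at least once, and 0.69% at least 3 times. The EGR match of Shank3 runs from -146 to -138, and 0.54% of the windows hold one. In the deposited tables Homer1 and Shank3 each begin downstream of the RefSeq start shown. Both windows were picked for holding a match, and the class of at least 3 equals the count seen in Homer1. The shares of windows thus do not measure how unusual these matches are. A match describes the letters in the window and was not tied to any of the differences above.

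Among the partners of the 8 genes, the counts in Set A lay above those in Sets B, C and E, as they did for all genes. Of 19 other scaffold genes of the postsynaptic density, 7 were higher and 0 lower past the threshold in Set A, against 10.7% and 7.74% of all genes. Their median log2 fold change was 0.09, against 0.02 over all tested genes. Tanc1 had 0.51 ± 0.07 (adjusted p 0.0806 in limma), Dlgap2, which encodes a PSD-95 binding protein, 0.29 ± 0.06 and Lrrc7, which encodes densin, 0.33 ± 0.07. In Set B, 0 were higher and 2 lower, Lrrc7 at -0.31 ± 0.10 and Sharpin at -0.17 ± 0.07, against 6.69% of all genes in either direction, in Set C 1 was higher, Magi2 at 0.19 ± 0.07, against 4.81%, and in Set E none passed, against 3.87%. Over both genotypes, Tanc1 was higher in running libraries by 0.36 ± 0.07 with an adjusted p of 0.0265 in limma, the 1 of the 19 that passed after adjustment, and its interaction was 0.30 ± 0.14. Without libraries 2, 6 and 7 its running effect was 0.30 ± 0.07 with an adjusted p of 0.162 in limma. Without libraries 6 and 7, both sedentary p16 KO, 6 of the 19 were higher and 0 lower in Set A, where 4.9% and 3.59% of all genes were.

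Of 12 genes for ligands of Homer, 3 were higher and 1 lower in Set A, against 10.7% and 7.74% of all genes. Ryr1 and Ryr2, ryanodine receptor genes, had 1.27 ± 0.37 and 0.43 ± 0.13 in Set A. Both were low in the libraries with low nuclear RNA: Ryr1 measured 2.08 to 4.38 TPM in libraries 2, 6 and 7 and 5.54 to 14.0 TPM in the other 13, and Ryr2 57.1 to 79.4 TPM against 83.1 to 124.6 TPM. Without libraries 6 and 7 the values in Set A were 0.67 ± 0.22 for Ryr1 and 0.21 ± 0.08 for Ryr2. In that fit 3 of the 12 genes were higher and 2 lower, against 4.9% and 3.59% of all genes, with a median of -0.08 in place of 0.09. Itpr1, an inositol trisphosphate receptor gene, was the lower one in Set A at -0.17 ± 0.06 and is named after its value was seen. Grm5, the metabotropic glutamate receptor mGluR5, was lower in Set E by a log2 fold change of -0.10 ± 0.04. In Set E 1 was higher and 1 lower, against 3.87% of all genes in either direction, in Set B 2 were lower, among them Ryr2 at -0.44 ± 0.17 (-0.35 ± 0.10 without libraries 2, 6 and 7), against 6.69%, and in Set C none passed. Without libraries 2, 6 and 7 Frmpd4 was higher in Set B past the threshold, at 0.38 ± 0.10 (unadjusted p 0.0111 in limma).

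Of 20 genes of spine actin regulation, 4 were higher and 1 lower in Set A, against 10.7% and 7.74% of all genes, with Cttnbp2 at 0.63 ± 0.15, Kalrn, which encodes kalirin, at 0.27 ± 0.09 and Actn4 at 0.15 ± 0.05. The lower one, named after its value was seen, was Ppp1r9b, which encodes spinophilin, at -0.25 ± 0.10. Without libraries 6 and 7 Cttnbp2 was at 0.38 ± 0.13, and 2 of the 20 were higher and 0 lower, against 4.9% and 3.59% of all genes. In Set B 1 was higher, Abi2 at 0.92 ± 0.27, against 6.69% of all genes in either direction, in Set C 1 was higher, Abi1 at 0.48 ± 0.15, against 4.81%, and in Set E none passed, against 3.87%. Without libraries 2, 6 and 7 Abi2 did not pass in Set B (0.85 ± 0.41), while Abi1 passed there at 0.57 ± 0.09, in Set C at 0.64 ± 0.07 and in the interaction at -0.77 ± 0.16, with adjusted p of 0.629, 0.143 and 0.591 in limma. Of 17 receptor and adhesion genes of the synapse, 6 were higher and 0 lower in Set A, against 10.7% and 7.74% of all genes, with Grin2a at 0.45 ± 0.11, Lgi1 at 0.26 ± 0.07 and Grin2b at 0.36 ± 0.15. In Set C 2 were higher, Grin2a at 0.31 ± 0.12 and Grin2b at 0.39 ± 0.17, both NMDA receptor subunit genes, against 4.81% of all genes in either direction. In Set B Gria3 was lower at -0.17 ± 0.07, against 6.69%, and in Set E none passed, against 3.87%. Without libraries 6 and 7, 2 of the 17 were higher and 0 lower in Set A, against 4.9% and 3.59% of all genes, and Grin2b did not pass there (0.25 ± 0.14). Without library 2, none passed in Set C, against 5.88% of all genes, with Grin2a at 0.21 ± 0.10 and Grin2b at 0.28 ± 0.17. Gria3 did not pass in Set B without libraries 2, 6 and 7 (-0.10 ± 0.07). In that fit Lgi1 was lower past the threshold, at -0.23 ± 0.09 (unadjusted p 0.0364 in limma). Lgi1, a secreted ligand at excitatory synapses, had an interaction of 0.24 ± 0.09, and of 0.33 ± 0.10 without libraries 2, 6 and 7. The median of these 17 genes was 0.12 in Set A and -0.10 in Set B. None of the genes of these lists passed after adjustment in Sets A, B, C or E in limma.

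Of 14 immediate early and activity genes, 4 were higher and 0 lower in Set A, against 10.7% and 7.74% of all genes, and 2 were higher and 0 lower in Set C, against 4.81% in either direction. The list did not move as a whole. Its median log2 fold change was 0.29 in Set A, -0.21 in Set C and -0.0009 for running over both genotypes. Nptx2, a secreted pentraxin that gathers AMPA receptors, had a log2 fold change of 1.35 ± 0.17 in Set A and 1.24 ± 0.27 in Set C, with mean levels of 17.7 ± 2.73 TPM in p16 KO CTL, 47.7 ± 10.0 TPM in p16 KO RUN, 15.7 ± 3.82 TPM in p16 WT CTL and 38.5 ± 14.9 TPM in p16 WT RUN (SD, n = 4). Bdnf, the neurotrophin, had 0.59 ± 0.10 and 0.30 ± 0.10, and Egr3 had 0.43 ± 0.06 in Set A. Over both genotypes the running effects of Nptx2, Bdnf and Egr3 were 1.29, 0.44 and 0.29, with adjusted p of 0.00688, 0.0181 and 0.039 in limma, the 3 of the 14 that passed after adjustment. Without libraries 2, 6 and 7 these effects were 1.33, 0.48 and 0.27, with adjusted p of 0.0958, 0.123 and 0.252, so that none passed after adjustment. Dusp1, a phosphatase of the MAP kinases, was lower over both genotypes at -0.43 ± 0.16 past the unadjusted threshold (adjusted p 0.181 in limma), with means of 19.4 ± 5.54 and 13.7 ± 2.50 TPM in p16 WT CTL and p16 WT RUN and of 16.2 ± 4.13 and 12.8 ± 1.85 TPM in p16 KO CTL and p16 KO RUN. It is named after its value was seen, and without libraries 6 and 7 it was lower in Set A at -0.65 ± 0.15. There 3 of the 14 were higher and 1 lower, against 4.9% and 3.59% of all genes, and the median of the list was -0.14. Homer1, an activity-regulated gene too, had a running effect of 0.26 over both genotypes. In Set B Npas4 was lower at -1.64 ± 0.59, with levels of 3.12 to 14.8 TPM in p16 WT CTL and 1.14 to 6.47 TPM in p16 KO CTL, and its interaction was 2.08 ± 0.72. Npas4 was the remaining higher gene of Set A, at 1.25 ± 0.49, and did not pass there without libraries 6 and 7 (0.48 ± 0.45). Its mean was 9.29 ± 4.77 TPM in p16 WT CTL and 4.76 ± 1.57 TPM in p16 WT RUN, and it did not pass in Set C. Without libraries 2, 6 and 7 Npas4 did not pass in Set B (-0.56 ± 0.62) or in the interaction (0.99 ± 0.68). The interaction of Egr3 was 0.28 ± 0.12, and without these libraries it was 0.26 ± 0.14 and did not pass.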

How the data were processed

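Total RNA of the dentate gyrus, from 2 pooled mice per sample, was made into 16 mRNA-Seq libraries with a Tecan Universal Plus kit and sequenced. According to the study's methods and the submitters' processing notes, the authors called bases with bcl2fastq 2.20, masked adapters with Cutadapt 1.11, trimmed with ERNE, aligned to mm10 with STAR and computed gene abundances with StringTie. The deposited TPM values are per gene and length-corrected. The FPKM values deposited by the authors come from the same run and served as an alternative. The deposited coverage values (mean coverage per base) served as a measure of relative depth only. Homer1 coverage was 0.088 to 0.108 of what its FPKM implies in its library and Shank2 coverage 0.848 to 0.862, while the other genes were at 0.984 to 1, so coverage was not used as a level.

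Where a gene name had several entries, as 112 to 130 did in each library, they were added up. Each library was divided by its median ratio to the mean library, taken from 13226 genes that reached 1 TPM everywhere. After removal of genes averaging under 0.1 TPM, 17317 remained, and limma 3.58.1 (R 4.3.3) was fitted to their log2 values (pseudocount 0.1 TPM after scaling), with a variance trend and Benjamini-Hochberg adjustment over all of them. Fold changes are on that scale and understate those of low genes. Sets A to E used the 8 libraries of their groups, the other effects all 16. For single genes the library labels were also permuted exhaustively (exact, two-sided, on mean log2 values, Python 3.11.15, scipy 1.17.1). Correlations were tested by 100000 permutations of the libraries, two-sided, and correlations without a stated p are descriptions. The p-values measure the spread between pooled libraries. The fitting was tested on simulated data.

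All 8 genes are named. Of each partner list, up to 3 genes of smallest p per comparison among those past the threshold are named. For likeness, the 3 genes with the highest Pearson correlation and a mean of at least 1 TPM are named, and genes that overlap a member are named too. Some genes that this rule names are not reported here. The members and lists were chosen with earlier results of these data known. Alternatives were other filters, pseudocounts and scalings, FPKM, 1 fit of all libraries, no variance trend, the highest entry per name, a nuclear RNA covariate and leaving out libraries.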

Additional observations from a re-analysis of the deposited data

Results flagged for a closer look

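Of 56 groups of 4 libraries checked for a library far from the other 3 (32 of TPM values and 24 of family shares), 5 had one, and chance alone gives about 1 in 20. Homer1 stood at 74.4 TPM in p16 KO CTL library 8, against 49.5 to 53.5 TPM in the other 3. Homer2 stood at 4.57 TPM in p16 WT CTL library 1 and at 5.09 TPM in p16 KO RUN library 14, far below the rest of each group. Shank3 stood at 183.7 TPM in p16 WT RUN library 10, against 149.1 to 151.7 TPM in the other 3. The Homer3 share of the Homer transcripts was 57.2% in p16 KO CTL library 7. Library 8 also had the highest sum of oligodendrocyte markers (2426 TPM) and the lowest of granule neuron markers (433 TPM), and the part of these in the Homer1 value was not tested.

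The running effect on Dbn1 was higher in p16 KO than in p16 WT by 0.35 on the log2 scale, by the interaction over 16 libraries, with an adjusted p of 0.797 in limma. With the nuclear list as a covariate this interaction was 0.25 ± 0.11. The oligodendrocyte markers had a median interaction of -0.56, with 1 of 6 lower past the threshold, and of -0.82 with 6 of 6 lower without libraries 2, 6 and 7, where Dbn1 was at 0.40.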

How the results depend on the processing

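No paired analysis was possible because no replicate number is shared between groups. Of 736 log2 fold changes of the 8 genes under other settings, 678 kept their direction and their side of the unadjusted p of 0.05, 25 lost and 6 gained it, and 27 changed sign, none of them past the threshold as reported, where they lay between -0.11 and 0.03, and most of them of Dlg4. Of these, Dlg4 in Set A passed the threshold under quantile normalization (unadjusted p 0.022 in limma). All 48 share differences stayed within 1 SD under FPKM and under the highest entry per name.

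The number of the 8 genes past the threshold came to 1 for Set A, 0 for B and for C, and 1 for D, both without a filter and without a variance trend. With the nuclear RNA covariate it was 1 for Set A, 0 for B, 1 for C and 0 for running over both genotypes. It was 1 for Set A and 1 for C without libraries 2, 6 and 7, where 8.49% and 5.88% of all genes passed. The share of all genes past the threshold was counted only in the fits as reported and in those without libraries 2, 6 and 7. Counts of the 8 genes under other settings stand without it. In 1 fit of all 16 libraries it was 1 in Set C (Shank1) and 0 in Set E (Dbn1 lost). In that fit Set B kept a count of 1 with Dbn1 in place of Homer2, and Set A a count of 2 with Shank2 in place of Homer2, as it did with TPM as deposited with Homer3 in place of Homer2. Dlg4 changed sign with TPM as deposited (Set A 0.0421, Set B -0.0478, running 0.0005, knockout -0.0062) and with quantile normalization (Set A 0.1368, Set B -0.1028, Set D 0.0341, running 0.0622, knockout -0.0281). With the nuclear RNA covariate the values were, for Dlg4, 0.0878 in Set A, -0.0504 in Set B, 0.0106 for running and -0.0039 for knockout, for Shank2 0.0067 in Set B, -0.0019 in Set C and 0.025 for knockout, and for Dbn1 -0.0522 in Set C and 0.0246 for knockout. Without libraries 2, 6 and 7 Dlg4 was at 0.0849 in Set A, -0.1023 in Set B, 0.012 for running and -0.0294 for knockout, Homer3 at 0.0985 in Set B, Homer2 at 0.0531, Shank2 at -0.0187 and Dbn1 at -0.079 in Set C, and Shank2 at 0.0192 for knockout. The cause was not tested.

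With each library left out in turn, the number of genes past the threshold ran over 1 to 4 for Set A, 0 to 2 for B, 0 to 2 for C, 0 to 3 for D and 0 to 1 for knockout over both treatments. Of 704 log2 fold changes, 51 changed sign. Their ranges were, for Dlg4, -0.0626 to 0.0143 in Set A, -0.0247 to 0.0522 in Set B, -0.0279 to 0.0202 in Set D and -0.0088 to 0.0681 in the interaction. They were -0.0449 to 0.1506 in Set E and -0.2066 to 0.0214 in the interaction for Homer1, and -0.5164 to 0.1563 in Set C, -0.3378 to 0.447 in Set D and -0.0846 to 0.554 in Set E for Homer2. Homer3 ranged over -0.1578 to 0.0766 in Set B and -0.1148 to 0.1357 in Set C, and Shank1 over -0.1109 to 0.0997 in Set E. Shank2 ranged over -0.0187 to 0.0398 in Set C and -0.0386 to 0.0072 for knockout, and Shank3 over -0.049 to 0.0811 in Set A, -0.0089 to 0.1057 in Set C, -0.1209 to 0.0097 in the interaction and -0.0041 to 0.0765 for running. Dbn1 ranged over -0.079 to 0.0892 in Set C and -0.0752 to 0.0089 for knockout.

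Pooled libraries and the lack of counts limit these values. Homer2, the lowest of the 8 by mean TPM, had the widest intervals. Its libraries stood at 4.57 to 5.99 TPM or at 14.2 to 21.3 TPM, with nothing between. The part of pooling, of the missing counts or of the low level in this width was not tested.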
